A study of Homo sapiens with 4 samples.

Results

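The LKB1, STRAD, MO25 and AMPK genes were followed in human non-small cell lung cancer cells after siRNA against hMOF, the histone H4 acetyltransferase encoded by KAT8. The set holds 10 genes of the 19775 that the platform annotation names with a single gene. They are STK11 (LKB1), STRADA, STRADB, CAB39 and CAB39L (the MO25 proteins), and PRKAA1, PRKAA2, PRKAB1, PRKAB2 and PRKAG1 (subunits of AMPK). All 28 probe sets annotated to exactly 1 of them were taken, of 54675 on the array. The set was chosen by role in the pathway with results of these arrays known, above all the low STRADB signal with hMOF siRNA, and both contrasts described here belong to its definition. The values of the 10 genes are therefore given as a description, with no test.

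The 4 groups were A549 cells with scramble siRNA, A549 cells with hMOF siRNA, H1299 cells with scramble siRNA and H1299 cells with hMOF siRNA, each measured on 1 Affymetrix array. All were cultured in DMEM with 10% fetal bovine serum and transfected with Lipofectamine 2000. A549 is an adenocarcinoma line of lung epithelium that is known to carry a truncating mutation of STK11, and H1299 is a line from a lymph node metastasis that is known to keep the normal gene. Groups follow the source name given for each array. On 2 arrays the treatment tag names the other siRNA. With groups by source name, the KAT8 signal was lower on the hMOF siRNA array of each line, as given below. Nothing in the labels says how many cultures stood behind an array or how long after transfection RNA was taken.

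LKB1 is a serine/threonine kinase and tumour suppressor that is active only in a complex with the pseudokinase STRAD and the scaffold protein MO25. STRAD binds LKB1, stimulates it and holds it in the cytoplasm, and MO25 stabilises the complex. The complex phosphorylates the activation loop of AMPK and of the AMPK-related kinases. AMPK senses a fall in cellular energy through its gamma subunit, and its catalytic alpha subunit then turns off fat and sterol synthesis and mTORC1 signalling. STK11 is among the tumour suppressor genes most often lost in lung adenocarcinoma.

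Signals were MAS5 intensities on a linear scale, with array medians of 73.3 to 75.4. Ratios are log2 differences of signal plus an offset of 29.06, the 20th percentile of all signals. Counts of genes at least 2-fold apart use this scale. Percentages of signal remaining and values given as times or fold higher are ratios of signals without the offset. A probe set counted as measured at a mean signal of at least 78.2 over the 4 arrays, and the measured probe set with the highest mean was chosen for each gene. Of the 28 probe sets, 21 met this minimum, and each of the 10 genes had at least 1. With hMOF siRNA, KAT8 stood at 26.4% of its scramble signal in A549 and at 25.6% in H1299 on probe set 221820_s_at. Its H1299 array with hMOF siRNA, at 61.8, lay below the minimum. The other KAT8 probe set, 214885_at, was below the minimum and stood at 83.8% and 64.5%. The CDH1 signal, an epithelial marker, was 1535 and 1562 in A549 (scramble and hMOF siRNA) against 8.04 and 7.61 in H1299. Mesenchymal markers were split: VIM (vimentin) read 9367 and 11326 in A549 against 15787 and 15594 in H1299 and ZEB1 531 and 491 against 844 and 957, whereas CDH2 (N-cadherin) was lower in H1299, at 2849 and 3733 against 766 and 930. Of 7 markers of blood, endothelial and fibroblast cells, PTPRC, CDH5, COL1A2 and DCN were below the signal minimum, CD3E and PECAM1 were flat at 85.6 to 88.0 and 205 to 224, and COL1A1 read 541 and 1191 in A549 against 7.97 and 7.89 in H1299. In these whole-culture extracts, less RNA per cell and fewer cells with the transcript cannot be told apart.

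STRADB, the pseudokinase that can replace STRADA in the complex, was the member with the lowest ratios. Its only probe set, 223266_at, read 1161 on the scramble array and 311 on the hMOF siRNA array of A549. In H1299 the signal was 1158 with scramble and 212 with hMOF siRNA. The scramble arrays were thus nearly level between lines, and both hMOF siRNA arrays lay far below them. Thus 26.8% of the scramble signal remained in A549, and 18.3% in H1299. On the log2 scale the difference was −1.81 and −2.30 (mean −2.05 ± 0.35, SD, n = 2 lines). With a single probe set, no other probes on the array bear on this value.

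STRADA, the founding STRAD protein, did not share this pattern. Its chosen probe set, 52169_at, read 743 on the scramble array and 792 on the hMOF siRNA array of A549, and 614 and 665 in H1299. Both hMOF siRNA arrays were slightly above the scramble arrays of their line. Probe set 221554_at read 425 and 423 in A549 against 383 and 422 in H1299. The log2 ratios of the 3 STRADA probe sets lay between −0.01 and 0.13, in contrast to STRADB. The mean ratio of STRADA was 0.10 ± 0.02 (SD, n = 2 lines), so the STRAD genes stood apart in both lines.

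**Figure D1:**
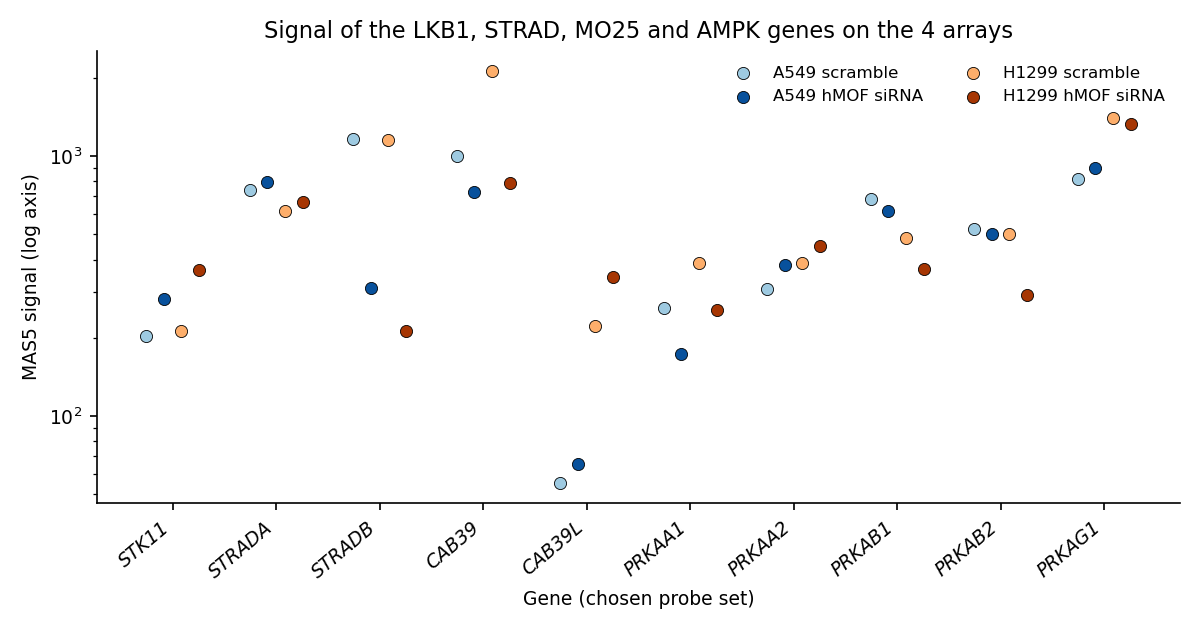
MAS5 signal on a log axis for the chosen probe set of each of the 10 genes, with 1 point per array (light and dark blue for A549, light and dark orange for H1299; the dark points are hMOF siRNA). STRADB stands at 1161 and 1158 on the scramble arrays and at 311 and 212 on the hMOF siRNA arrays, and CAB39 reads 2120 with scramble and 790 with hMOF siRNA in H1299.

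The MO25 genes also had ratios of opposite sign. CAB39 encodes MO25 alpha, the scaffold that clamps STRAD and LKB1 together. Its chosen probe set, 217873_at, read 1003 on the scramble array and 726 on the hMOF siRNA array of A549. In H1299 it read 2120 and 790, so that the H1299 scramble array stood apart above the other 3. The log2 ratio was −0.45 in A549 and −1.39 in H1299. The dimmer probe set 224311_s_at gave the same order, at 136 and 89.9 in A549 against 263 and 107 in H1299 (log2 −0.48 and −1.10). With both probe sets, CAB39 was past 2-fold lower in H1299 and not in A549. The difference between lines could not be tested with 1 array per group.

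CAB39L, which encodes the related MO25 beta, was low in A549 and higher in H1299. Its chosen probe set, 225915_at, read 55.4 and 65.6 in A549 (scramble and hMOF siRNA) against 223 and 344 in H1299. Probe set 225914_s_at, just under the signal minimum, read 27.8 and 32.3 in A549 against 76.5 and 152 in H1299. Both had their highest signal with hMOF siRNA in H1299, where CAB39 was below its scramble value. The log2 ratio of 225915_at was 0.16 in A549 and 0.57 in H1299, and that of 225914_s_at was 0.11 and 0.78. The last CAB39L probe set, 221003_s_at, was flat at 61.3 to 77.8 on all arrays, below the signal minimum.

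The windows upstream of STRADB, CAB39 and PRKAA1, which had the lowest mean ratios of the 10 genes, are shown beside that of CAB39L, the MO25 gene that was higher with hMOF siRNA. Each is the 250 bases before the RefSeq transcription start in GRCh38.p14, read 5′ to 3′ on the gene's strand, and CAB39 is shown from the first of its 2 entries. Capitals mark matches on either strand to the GC box, spelled GGGCGG. They also mark the CCAAT box, which is spelled as it is named, and the core of the cyclic AMP response element, spelled TGACG. The TATA box was searched with the letters TATAAA and the core of ETS factor sites with the letters CCGGAA. The last motif was the element of 11 bases that is bound by ZNF143 and THAP11, and its match is the longest run of capitals in the STRADB window.
STRADB, chr2:201451490-201451739, plus strand: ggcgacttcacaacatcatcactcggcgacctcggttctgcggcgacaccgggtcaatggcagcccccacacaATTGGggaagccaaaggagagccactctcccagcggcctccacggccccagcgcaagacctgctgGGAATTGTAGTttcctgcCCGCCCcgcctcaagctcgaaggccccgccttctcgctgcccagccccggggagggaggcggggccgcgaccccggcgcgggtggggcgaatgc
CAB39, chr2:230712592-230712841, plus strand: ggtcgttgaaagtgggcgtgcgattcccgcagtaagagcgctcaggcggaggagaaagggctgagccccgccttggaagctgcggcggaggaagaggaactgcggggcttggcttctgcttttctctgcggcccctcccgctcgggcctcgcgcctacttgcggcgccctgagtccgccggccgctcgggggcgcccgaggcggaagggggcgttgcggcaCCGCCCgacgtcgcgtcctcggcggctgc
PRKAA1, chr5:40798178-40798427, minus strand: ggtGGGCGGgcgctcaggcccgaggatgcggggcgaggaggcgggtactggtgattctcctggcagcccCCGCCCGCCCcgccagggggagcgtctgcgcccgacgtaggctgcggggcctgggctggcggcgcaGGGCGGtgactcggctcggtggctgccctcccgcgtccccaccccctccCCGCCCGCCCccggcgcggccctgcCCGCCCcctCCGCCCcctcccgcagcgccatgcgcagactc
CAB39L, chr13:49401543-49401792, minus strand: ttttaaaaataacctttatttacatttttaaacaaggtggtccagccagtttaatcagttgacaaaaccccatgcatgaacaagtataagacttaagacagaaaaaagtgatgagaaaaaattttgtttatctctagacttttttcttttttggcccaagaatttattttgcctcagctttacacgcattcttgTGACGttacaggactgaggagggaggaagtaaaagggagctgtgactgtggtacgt

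The STRADB, CAB39 and PRKAA1 windows were rich in G and C, at 69.2%, 72.0% and 80.8%, against a median of 58.0% over 35116 RefSeq windows of this length. The CAB39L window held 35.6% G and C and 3 CpG dinucleotides, against 23 in STRADB, 33 in CAB39, 31 in PRKAA1 and a median of 11. Rich windows were not limited to genes with low ratios. STK11 and PRKAA2, above 0 in both lines, had 76% and 83.2% G and C, with 37 and 39 CpG dinucleotides. The PRKAB1, PRKAB2 and PRKAG1 windows held 67.6%, 69.6% and 62% G and C. A link between base content and the ratios was not tested. GC boxes, the binding sites of SP1, matched 1 time in STRADB, 1 time in CAB39 and 8 times in PRKAA1, counting overlapping matches, and 42.6% of all windows held at least 1. STRADB also held 1 match to the CCAAT box, found in 32.0% of windows, and CAB39L 1 match to the cyclic AMP element core, found in 21.2%. The ZNF143 and THAP11 element matched the STRADB window 1 time and 0.225% of all windows, and no other window of the 10 genes. It was added to the search after the STRADB window had been read. The TATA box letters, in 10.7% of windows, and the ETS core, in 14.5%, matched none of the 4 windows shown. Windows were found for 9 of the 10 genes.

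STK11, the kinase of the complex, had higher signals with hMOF siRNA than with scramble on each of its 3 probe sets in both lines. The chosen probe set 231017_at read 204 and 283 in A549 (scramble and hMOF siRNA) against 213 and 366 in H1299. Its log2 ratio was 0.42 in A549 and 0.71 in H1299 (mean 0.57 ± 0.20, SD, n = 2 lines). Probe set 204292_x_at gave 0.41 and 0.53, and 41657_at gave 0.17 and 0.21. No STK11 ratio reached 2-fold. Between lines the STK11 signals overlapped on all 3 probe sets, although A549 carries the mutant gene. On 41657_at they were 180 and 206 in A549 against 165 and 196 in H1299.

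The catalytic subunits of AMPK had ratios of opposite sign. PRKAA1 encodes the widely expressed alpha 1 subunit. Its chosen probe set, 225984_at, read 261 on the scramble array and 174 on the hMOF siRNA array of A549, and 389 and 256 in H1299. Thus 66.5% of the scramble signal remained in A549 and 65.8% in H1299, nearly the same in both lines (mean log2 −0.53 ± 0.02, SD, n = 2 lines). Probe set 225985_at gave 66.9% and 62.4%. Probe set 209799_at stood slightly above scramble instead, at 74.5 and 78.2 in A549 against 175 and 185 in H1299. The PRKAA1 probe sets below the signal minimum, 214917_at and 1555177_at, had log2 ratios between −0.14 and 0.00. The lower PRKAA1 value thus rests on 2 of its 3 measured probe sets.

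PRKAA2 encodes the alpha 2 subunit, which is best known from muscle and heart. Its chosen probe set, 227892_at, read 307 and 382 in A549 (scramble and hMOF siRNA) against 387 and 450 in H1299, a log2 ratio of 0.29 and 0.21. All 5 PRKAA2 probe sets were above 0 in both lines, with ratios from 0.02 to 0.32. The differences were small, and their direction was the reverse of that at the PRKAA1 probe sets 225984_at and 225985_at.

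The beta subunits hold the AMPK complex together and bind glycogen. PRKAB1 was 683 and 618 in A549 against 484 and 369 in H1299 on probe set 201834_at (log2 −0.14 and −0.36). PRKAB2 was 523 and 503 in A549 against 500 and 292 in H1299 on 225278_at (log2 −0.05 and −0.72). For PRKAB2, 3 arrays lay close together and the H1299 hMOF siRNA array stood below them. The other PRKAB2 probe sets were lowest on the same array, with H1299 ratios of −0.28 and −0.37. PRKAG1, the main gamma subunit, which binds AMP and ATP, was 815 and 900 in A549 against 1405 and 1333 in H1299 on its single probe set 201805_at (log2 0.14 and −0.08). It was the only one of the 10 chosen probe sets with opposite signs in the lines, against 31.7% of all genes.

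Over the 10 genes, 1 was at least 2-fold lower in A549 (STRADB; 1.14% of the 12825 genes analysed) and 2 were in H1299 (STRADB and CAB39; 2.21% of genes). In both lines it was 1 of 10, STRADB, against 0.78% of genes. None was 2-fold higher, against 0.717% of genes in A549, 1.22% in H1299 and 0.288% in both. Below 0 in both lines were STRADB, CAB39, PRKAA1, PRKAB1 and PRKAB2, 5 of 10, against 36.7% of genes, and above 0 in both were STK11, STRADA, CAB39L and PRKAA2, 4 of 10, against 31.6%. The median log2 ratio of the 10 was 0.02 in A549 and −0.22 in H1299, and that of all genes was −0.02 and −0.01. The set was chosen with these ratios in view, so nothing is read from the counts.

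**Figure D2:**
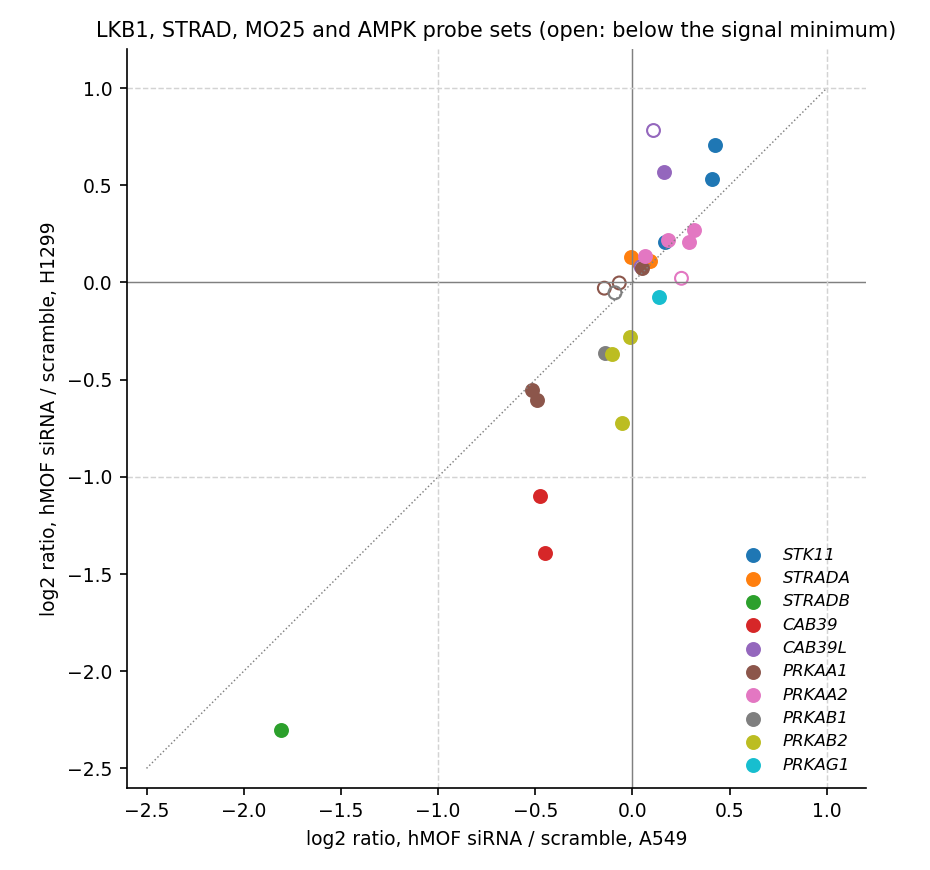
The log2 ratio of hMOF siRNA to scramble in H1299 (vertical) against that in A549 (horizontal) for all 28 probe sets, coloured by gene, with filled points for the 21 at or above the signal minimum, the dotted line of equal ratios and dashed lines at 2-fold. STRADB lies alone at −1.81 and −2.30, both CAB39 probe sets lie past 2-fold in H1299 only, and the STK11 probe sets lie above 0 on both axes.

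The profile of STRADB over the 4 arrays consists mainly of its lower signal with hMOF siRNA in both lines. The genes closest to it are therefore lower with hMOF siRNA by the way they were found, and are named as a description only. By the root-mean-square difference of log2 values centred on each gene's mean over the 4 arrays, the closest of the other genes analysed were UBE2Q1, a ubiquitin-conjugating enzyme gene (0.10), and SMAD5, a mediator of BMP signalling (0.14). They were followed by HIPK3, a homeodomain-interacting kinase gene (0.18), GCH1, the first enzyme of tetrahydrobiopterin synthesis (0.19), and SKP2, a ubiquitin ligase subunit (0.19). GCH1 read 908 on the scramble array and 298 on the hMOF siRNA array of A549, and 771 and 177 in H1299. None of the LKB1 or AMPK genes was among these 5, and with 12825 genes analysed nothing is read from that.

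The line comparison asked how the same genes stood in cells with mutant and with normal STK11. CAB39L was the only one at least 2-fold apart under both siRNAs. Its A549 arrays, at 55.4 and 65.6, lay below the signal minimum, and the gene was counted as measured through its H1299 arrays. Against the minimum itself, H1299 was at least 2.85-fold higher with scramble and 4.40-fold with hMOF siRNA. Of all genes, 7.27% were at least 2-fold higher in H1299 under both siRNAs and 9.86% at least 2-fold lower. CAB39 was 2.11 times higher in H1299 with scramble, but 1.09 times with hMOF siRNA, where the lines came level. STRADB was level with scramble (log2 0.00, H1299 over A549) and lower in H1299 with hMOF siRNA (−0.50).

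For CAB39L, PRKAA2 and PRKAG1 both H1299 arrays lay above both A549 arrays, 3 of 10 against 32.7% of all genes. For STRADA, PRKAB1 and PRKAB2 both lay below, 3 of 10 against 37.6%. These shares lie near those of all genes. STK11, STRADB, CAB39 and PRKAA1 overlapped between lines. The PRKAA2 order was narrow on its chosen probe set, at 387 in H1299 with scramble against 382 in A549 with hMOF siRNA. Probe set 238441_at gave the same order, and 238489_at overlapped. The reverse was seen on 240349_at, at 206 and 216 in A549 (scramble and hMOF siRNA) against 170 and 190 in H1299. PRKAG1 was 1.72 times higher in H1299 with scramble and 1.48 times with hMOF siRNA, and PRKAB1 was 1.41 and 1.67 times higher in A549. On PRKAA1 probe set 209799_at, H1299 was 2.34 and 2.37 times higher, whereas 225984_at gave 1.49 and 1.47 times. With the offset, 209799_at was at log2 0.976 and 0.998, under 2-fold.

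Beyond the 10 genes, 80 genes of the pathway in 8 lists were examined for the siRNA effect, and 71 of them were measured. In a fit with terms for line and siRNA, limma called MAP3K7, STK26, MTOR and TACC2 lower and FNIP2 higher, and 66 genes did not pass. That is 4 of 71 lower and 1 of 71 higher, against 2.41% and 1.16% of all 12825 genes, or 3.57% in either direction. At an unadjusted p under 0.05 there were 19 of 71 (26.8%), against 23.8% of all genes. The median log2 ratio of the 71 was −0.13 in A549 and −0.02 in H1299.

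MAP3K7 encodes TAK1, a kinase that can phosphorylate AMPK in place of LKB1. It fell from 426 to 150 in A549 and from 651 to 247 in H1299 (a mean of −1.32 on the log2 scale, SE 0.11; limma adjusted p = 0.0288). Its 4 probe sets had ratios between −0.86 and −1.34 in both lines. STK26, a kinase that MO25 also binds, fell from 674 to 335 and from 928 to 398 (−1.06, SE 0.12; limma adjusted p = 0.0321). MTOR, the kinase of mTORC1, fell from 160 to 73.3 and from 202 to 74.3 (−1.02, SE 0.12; limma adjusted p = 0.0347). Both MTOR arrays with hMOF siRNA lay just under the signal minimum, so the gene was counted as measured through its scramble arrays. With the hMOF siRNA arrays set to the minimum, the MTOR mean was −0.96. The other probe sets of STK26 and MTOR lay below the signal minimum and did not show the fall, at −0.03 and 0.02 for STK26 224407_s_at and 0.09 and −0.16 for MTOR 215381_at.

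FNIP2, a partner of folliculin that binds AMPK, rose from 195 to 392 in A549 and from 321 to 562 in H1299 (a mean of 0.83 on the log2 scale, SE 0.11; limma adjusted p = 0.0391). Its 3 measured probe sets lay between 0.70 and 0.91. TACC2, a centrosomal protein gene of the LKB1-loss list, fell from 1580 to 961 and from 849 to 384 (−0.89, SE 0.14; limma adjusted p = 0.0484). The TACC2 call was lost under 3 of the 10 alternatives that kept the term for cell line (limma adjusted p from 0.0349 to 0.0563). The calls on MAP3K7, STK26, MTOR and FNIP2 held under each alternative run that kept the term for cell line and measured the gene.

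None of 11 measured AMPK-related kinases passed. Against 23.8% of all genes, 4 of the 11 (36.4%) had an unadjusted p under 0.05 by limma. These were the salt-inducible kinases SIK2 (mean log2 −0.77; limma adjusted p = 0.0532) and SIK3 (−0.77; 0.0595), SNRK (−0.74; 0.0510) and NUAK1 (−0.64; 0.0887). SIK2 read 421 and 264 in A549 against 643 and 326 in H1299, and SNRK 390 and 243 and 604 and 318. The same 10 alternatives called SNRK in 4 of 10, SIK2 in 3 of 10, SIK3 in 1 of 10 and NUAK1 in 0 of 10. The list's median log2 ratio was −0.26 in A549 and −0.08 in H1299, against −0.02 and −0.01 for all genes. MARK4, a microtubule affinity-regulating kinase, was at 0.41 and 0.14 and did not pass.

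Of 10 other upstream kinases and AMPK regulators, MAP3K7 fell, FNIP2 rose and 8 did not pass. CAMKK2, the calcium-dependent kinase of AMPK, was at −0.16 in A549 and −0.38 in H1299. The stress-induced sestrin gene SESN2 was at 0.57 and 0.29. Of 5 other kinases bound by MO25, STK26 fell and 4 did not pass, among them STK25 at 0.61 and 0.61 (limma adjusted p = 0.0580).

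None of 16 measured AMPK substrates passed, and 3 (18.8%) had an unadjusted p under 0.05 by limma, against 23.8% of all genes. FOXO3, a stress-responsive transcription factor, had the lowest mean, from 1010 to 590 in A549 and from 1574 to 636 in H1299 (limma adjusted p = 0.0505; called under 7 of 10 alternatives). ACACA, the acetyl-CoA carboxylase of fatty acid synthesis, was at −0.08 and 0.18, and ULK1, the kinase that starts autophagy, at 0.54 and 0.11. Of 11 mTORC1 pathway genes, MTOR fell and 10 did not pass, among them AKT1S1, an inhibitory partner of mTORC1, at 0.40 and 0.65. None of 6 measured CREB and CRTC target genes passed, and 1 (16.7%) had an unadjusted p under 0.05 by limma. NR4A2, a nuclear receptor of this list, was at 0.28 and 0.92. Of 14 measured genes of the LKB1-loss list, TACC2 fell and 13 did not pass. The only gamma subunit measured outside the set, PRKAG2, was at 0.26 and −0.02.

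**Figure D3:**
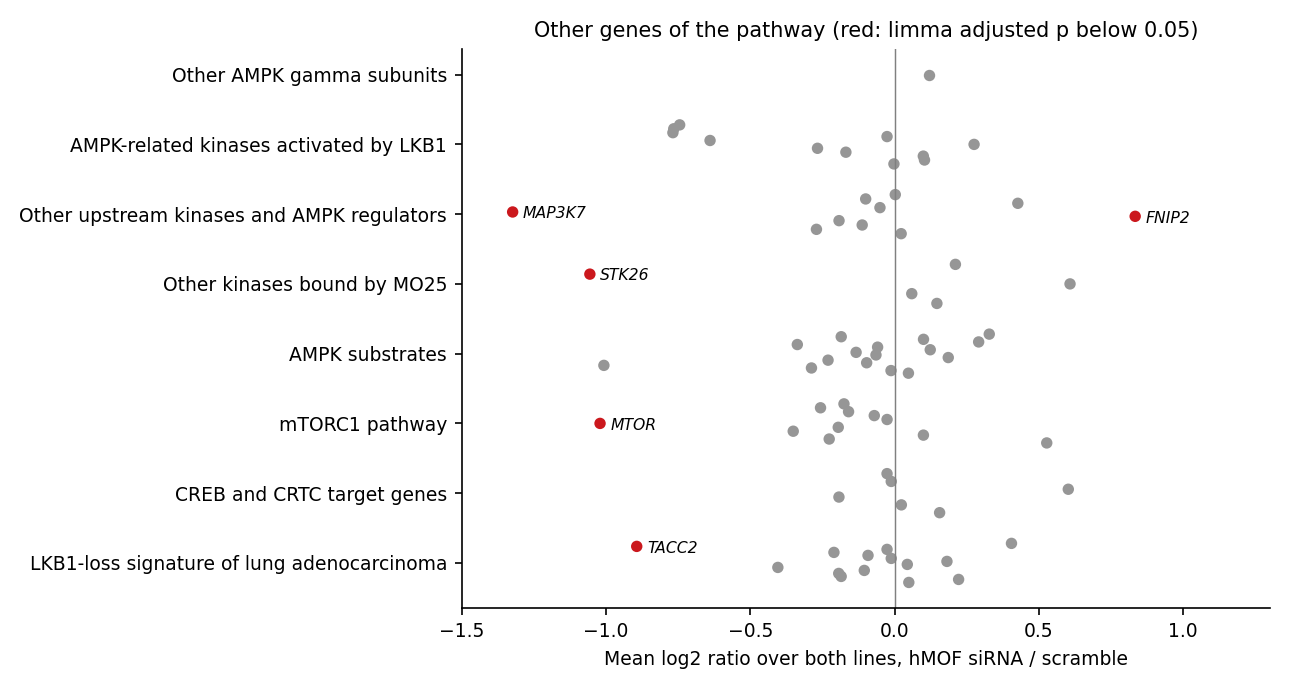
Mean log2 ratio of hMOF siRNA to scramble over both lines (horizontal) for each measured gene of the 8 pathway lists (rows), with 1 point per gene and vertical spread within a row only to separate points; a gene on more than 1 list appears in each. Red points passed limma's test across all genes: MAP3K7 at −1.32, STK26 at −1.06, MTOR at −1.02 and TACC2 at −0.89 to the left, and FNIP2 at 0.83 to the right.

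Of the 8 lists, the one furthest apart between lines held genes of a published signature of lung adenocarcinomas that have lost LKB1. Of 14 measured genes of this list, 13 were higher in A549 by limma with siRNA as a term, none was higher in H1299, and MUC5AC did not pass. Of all genes 27.3% were called higher in A549 and 25.1% higher in H1299. The list's median log2 difference of H1299 to A549 was −2.82, against −0.03 for all genes. In H1299, 6 of the 14 genes (SIK1, DUSP4, CPS1, IRS2, TESC and FGA) lay below the signal minimum and were counted as measured through A549. Their differences are given below as bounds, with the H1299 arrays set to the minimum. The 13 calls and the median include these 6 as deposited, so the count was favoured by the signal filter. With no signal filter, 13 of 16 genes were called higher in A549. The list was also chosen with earlier results of these data known. The list shares SIK1 and PDE4D with that of CREB and CRTC targets. Whether these lines contributed to the published list is not given in the sources used here.

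SIK1, an LKB1-dependent kinase that restrains CRTC coactivators, read 4028 and 3675 in A549 (scramble and hMOF siRNA) against 26.6 and 29.8 in H1299. With the H1299 arrays set to the minimum, the mean log2 difference of H1299 to A549 was −5.18. The human genome holds a near-identical copy of SIK1, and probes may read both. CPS1, the carbamoyl phosphate synthetase of the urea cycle, read 1591 and 1342 against 38.7 and 32.9 (−3.80 with the minimum). PDE4D, a cyclic AMP phosphodiesterase, read 2628 and 2453 against 285 and 302 (−2.99, SE 0.11; limma adjusted p = 0.000116). For these 3 genes both H1299 arrays lay below both A549 arrays, as they did for 37.6% of all genes.

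DUSP4, a phosphatase of MAP kinases, read 4159 and 3188 in A549 against 9.95 and 9.76 in H1299 (log2 −5.10 with the minimum). With the minimum, the insulin receptor substrate IRS2 was at −4.05, the calcium-binding protein gene TESC at −3.17 and the fibrinogen chain gene FGA at −3.11. The smallest called differences were those of GLCE, an epimerase of heparan sulfate synthesis (−0.91), and TACC2 (−1.07). MUC5AC, a gel-forming mucin, was at −0.13. Epithelial markers moved with the list. EPCAM, CDH1, KRT8, KRT18 and KRT19 were higher in A549, 5 of 5, with a summed signal of 21997 and 19998 there and 3600 and 2716 in H1299. The summed signal of AKR1B10, ALDH1A1 and ALDH3A1, enzymes for which A549 is known, was 34576 and 29925 in A549 against 77.4 and 74.4 in H1299. STK11 status, epithelial identity and every other difference between the lines cannot be told apart here.

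**Figure D4:**
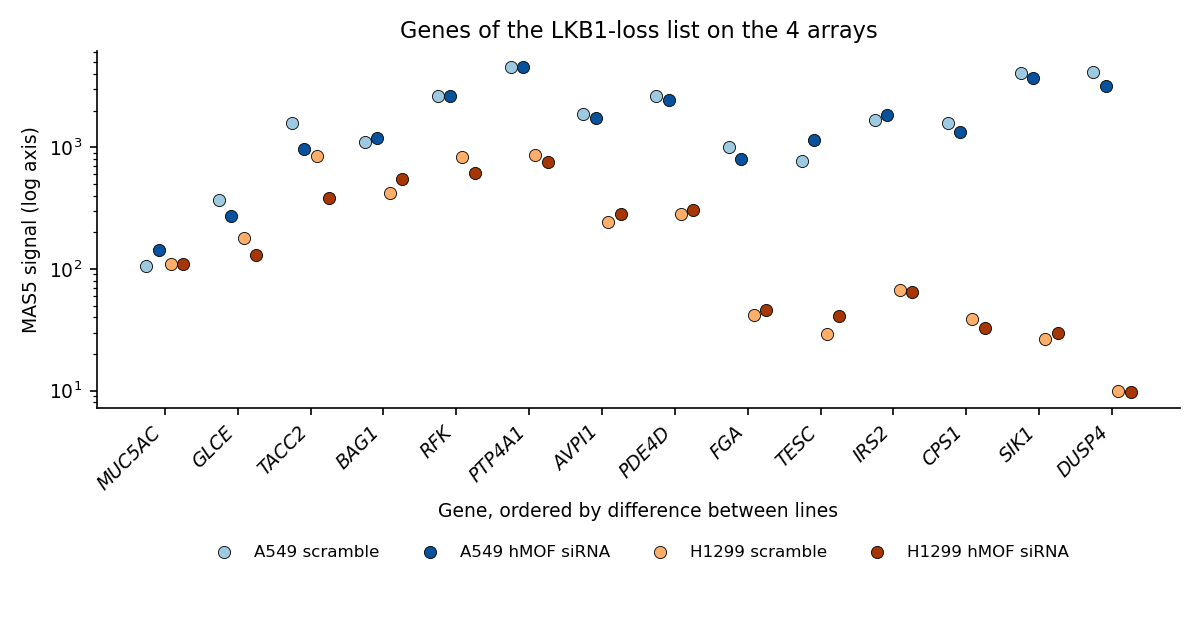
MAS5 signal on a log axis for the 14 measured genes of the LKB1-loss list, ordered from the smallest to the largest difference between lines, with 1 point per array (blue for A549, orange for H1299; dark points are hMOF siRNA). SIK1 stands at 4028 and 3675 in A549 and at 26.6 and 29.8 in H1299, whereas MUC5AC overlaps between the lines.

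The other lists were mostly split between the lines. Of the AMPK-related kinases 5 were higher in H1299, 3 higher in A549 and 3 did not pass by limma. Among those called, MARK1 lay below the signal minimum in A549, at 56.1 and 70.6, and was counted through H1299 (0.91 with the minimum). SIK1 was likewise counted through A549. Of the AMPK substrates 4 were higher in H1299, among them the Rab GTPase-activating protein genes TBC1D1 (1.62) and TBC1D4 (1.89). A further 6 were higher in A549, among them PFKFB3, a driver of glycolysis (−2.72), and ULK1 (−1.49). TXNIP, also among the 6, lay below the signal minimum in H1299 and was counted through A549 (−0.51 with the minimum). Of the other upstream kinases and regulators 5 were higher in H1299 and 1 in A549, CAMKK1 (−0.89). PRKAG2 read 326 and 396 in A549 against 1194 and 1175 in H1299 (log2 difference 1.64, SE 0.12; limma adjusted p = 0.000737). Its H1299 arrays thus lay above its A549 arrays, as those of PRKAG1 did. Of the other kinases bound by MO25, 2 were higher in H1299 and 1 in A549, and of the mTORC1 pathway genes 1 and 3. Of the CREB and CRTC targets, 3 were higher in A549, SIK1 among them, and none in H1299. Over all 71 genes, 18 were higher in H1299 and 27 in A549, 63.4% in all, against 52.4% of the 12825 genes. Of the 27, 13 were genes of the LKB1-loss list, which was chosen with earlier results known. Among these 13, 6 were counted as measured only through A549, as was TXNIP, and MARK1 only through H1299. Nothing is therefore read from the total. By direction, 25.1% of the 12825 genes were called higher in H1299 and 27.3% higher in A549.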

How the data were processed

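The deposited values were probe set intensities on a linear scale, which the authors computed with MAS5 per the submitters' processing notes. Its version and scaling target are not named there. Per the labels, biotinylated cRNA came from 6 ug of total RNA.

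Probe sets were named through the platform annotation, with symbols looked up in a RefSeq table of GRCh38.p14, and 41091 had a single gene. Values were analysed as log2(signal + 29.06), without further scaling. Of the genes, 12825 had a probe set at or above a mean signal of 78.2, the 50th percentile. A linear model with line and siRNA terms was fitted over all 4 arrays by limma 3.58.1 (R 4.3.3) with eBayes moderation, which leaves 1 residual degree of freedom per gene plus 3.74 prior degrees of freedom. Benjamini-Hochberg adjustment over all genes was held to 0.05. The lines are the only repeats of the siRNA contrast, and the siRNAs are the only repeats of the line contrast. The residual of a gene is the difference of its siRNA ratio between lines, which may be technical. The p values of both contrasts rest on that difference, moderated over genes. They measure no spread between cultures of the same line and siRNA. The number of arrays limits the precision.

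The 10 genes and the pathway lists were chosen with earlier results of these data known. Named genes were the 10 genes, the siRNA target, pathway genes past the limma threshold, the extremes of each list and the 5 profiles closest to STRADB. The fit was also run on simulated data, with noise drawn from the fitted model and equal effects in both lines. That run cannot speak to the lack of replicate arrays. Alternatives were other offsets (0 and 56.5), other filters (none and a mean signal of 179), quantile normalization, centring on the array median, averaging probe sets, leaving out _x_at probe sets, no term for the other factor and eBayes with trend. Centring on the median of the genes analysed, and bounds with signals below the minimum set to it, were added after the data were seen. Promoter windows came from RefSeq. Figures were drawn with matplotlib 3.10.9.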

Additional observations from a re-analysis of the deposited data

Results flagged for a closer look

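The genes named here had hMOF siRNA ratios on opposite sides of 0 in the lines. Each ratio rests on 1 array against 1 array, so the difference was not tested. Opposite signs were found for 1 of the 10 LKB1 and AMPK genes and for 24 of 71 measured pathway genes (33.8%), near the 31.7% of all genes. Differences below are H1299 minus A549 on the log2 scale. Among the LKB1 and AMPK genes, PRKAG1 differed by −0.21 (0.14 in A549, −0.08 in H1299). Among CREB and CRTC targets, NR4A1 differed by 0.92 (−0.65, 0.27), with its A549 hMOF siRNA array at 234 against 384 with scramble, and FOS differed by 0.67 (−0.31, 0.36). SIK1 and PDE4D, strongly different between lines in level, differed in siRNA ratio by 0.21 and 0.17.

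Of the AMPK substrates, TXNIP differed by 0.57 (−0.47, 0.10), with its H1299 arrays below the signal minimum. TSC2 differed by 0.51 (−0.15, 0.35), SREBF1 by 0.49 (−0.30, 0.19), ACACB by −0.35 (0.16, −0.19), ACACA by 0.26 and PFKFB2 by 0.21. Of the upstream kinases and regulators, SESN1 differed by −0.51 (0.20, −0.30), SESN3 by 0.47 (−0.34, 0.14), CAMKK1 by −0.16 and STK11IP by −0.082. RHEB, of the mTORC1 pathway, differed by 0.38 (−0.22, 0.16). Of the AMPK-related kinases, BRSK2 differed by 0.34 (−0.07, 0.27), MARK1 by −0.25 and BRSK1 by 0.037. Of the LKB1-loss list, FGA differed by 0.40, AVPI1 by 0.32, PTP4A1 by −0.20 and IRS2 by −0.18. The gamma subunit gene PRKAG2 differed by −0.28 and STK24, a kinase bound by MO25, by −0.17.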

How the results depend on the processing

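No mean ratio of the 10 genes over the lines changed sign in 89 recomputed values, of which 79 moved by less than the SD between lines. The 10 that moved more belonged to STRADA, PRKAA1 and PRKAA2, and PRKAA1 lay between −0.34 (probe sets averaged) and −0.60 (no offset). STRADB was the only gene of the set 2-fold lower in both lines under all 9 alternatives without a change of test, and none was 2-fold higher. With the higher signal filter, CAB39L was not measured and 0 genes of the set were 2-fold apart between lines. Pathway genes called lower numbered 4, and from 3 to 7 under the alternatives that kept the term for cell line: 3 with no signal filter and with either centring, and 7 with no offset, with the higher signal filter and without _x_at probe sets. Those called higher numbered 2 with the higher signal filter, with quantile normalization and with probe sets averaged, against 1. With no term for the other factor, limma called 0 lower and 0 higher (5 at an unadjusted p under 0.05), and 8 were higher in H1299 against 18. Of the LKB1-loss list 12 or 13 genes were higher in A549 under each alternative. Over all genes the calls were 149 higher and 309 lower (67.5% lower), quantile normalization gave 286 and 370 (56.4%), and centring on the genes analysed gave 188 and 228 (54.8%). The term for cell line is the only pairing the labels allow, since they number no replicates. Signals below the minimum leave bounds for CAB39L and MARK1 in A549, for TXNIP and 6 LKB1-loss genes in H1299, and for MTOR with hMOF siRNA.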
